A study of Mus musculus with 10 samples.

Results

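Solute carriers are membrane proteins that move nutrients, ions and metabolites across the plasma membrane and the membranes of organelles. The genes described here are those whose symbol starts with Slc and a number and whose mean level reached 5 TPM (a transcript level scaled for length and library size) in at least 1 of 5 groups of sorted mouse antigen-presenting cells. Of 372 Slc symbols, 3 (Slc40a1, Slc11a1 and Slc26a3) were left out by rule, 172 of the other 369 passed, and 197 did not. For comparison, 11214 of all 22571 symbols passed the same threshold. TPM chose the members, so their levels are given as a description and carry no test.

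All cells came from untreated wild-type C57BL/6 mice aged 8 weeks, and each group had 2 mRNA libraries made from small numbers of sorted cells. One set held colonic MHCII+ and splenic MHCII+ cells, where MHCII is the class II complex that presents antigen to helper T cells. The second set divided colonic cells by the integrins CD11b and CD11c into CD11c+, CD11b+ and CD11b+CD11c+ subsets. Nothing in the labels ties the 2 libraries of a group to different mice, so every p-value speaks only of library-to-library spread, part of which may be technical. Paired values below are libraries 1 and 2 of a group, in that order.

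Antigen-presenting cells use solute carriers to take up glucose and amino acids, to export lactate, to move peptides and metals out of endosomes and lysosomes, and to supply mitochondria with phosphate, nucleotides and fatty acids. Many carriers work as parts of a system: Slc3a2 is the heavy chain that brings several Slc7 light chains to the cell surface, Slc39 proteins bring zinc into the cytosol and Slc30 proteins take it out. Macrophages, dendritic cells, neutrophils and the epithelium of the gut each have carriers that they are known for.

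The upstream sequences of 3 members are shown because each gene is a textbook target of a nutrient or stress response and was called in the comparisons below. They are Slc30a1, the zinc exporter induced by metal through Mtf1, Slc7a11, the cystine/glutamate exchanger induced by amino acid shortage, and Slc16a3, the lactate exporter induced by low oxygen. Each runs 5′ to 3′ on the strand of its gene from base 250 to base 21 before the RefSeq start (RefSeq on GRCm38.p6), and overlaps no exon of the GENCODE annotation. The windows are chr1:191906531-191906760 (plus strand, inside the gene 1700034H15Rik), chr3:50443634-50443863 (minus strand, between genes) and chr11:120948817-120949046 (plus strand, inside Slc16a3 itself, upstream of this start). Capitals mark matches on either strand to the metal response core TGCACNC or TGCGCNC in Slc30a1, the amino acid response element TGATGNAAN in Slc7a11 and the hypoxia response core ACGTGC in Slc16a3.
Slc30a1: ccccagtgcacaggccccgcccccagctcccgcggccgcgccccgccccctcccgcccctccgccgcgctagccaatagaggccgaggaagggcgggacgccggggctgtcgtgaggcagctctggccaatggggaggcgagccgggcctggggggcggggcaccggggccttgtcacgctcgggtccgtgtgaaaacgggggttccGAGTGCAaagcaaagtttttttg
Slc7a11: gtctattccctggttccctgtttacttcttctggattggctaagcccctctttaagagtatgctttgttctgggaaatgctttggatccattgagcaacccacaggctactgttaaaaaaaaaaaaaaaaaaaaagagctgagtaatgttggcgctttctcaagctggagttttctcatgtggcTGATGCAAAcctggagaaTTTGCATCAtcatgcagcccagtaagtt
Slc16a3: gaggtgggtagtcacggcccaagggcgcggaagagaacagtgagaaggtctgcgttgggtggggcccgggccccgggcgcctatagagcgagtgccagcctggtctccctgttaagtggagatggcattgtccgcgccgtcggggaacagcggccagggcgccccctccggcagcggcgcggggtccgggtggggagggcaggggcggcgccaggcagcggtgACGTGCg
The match in Slc30a1 began 43 bases before the start, the 2 matches in Slc7a11 began 66 and 48 bases before it and share no base, and the match in Slc16a3 began 27 bases before it. Windows of the same length were taken from all 32851 promoters of the RefSeq table, and 178 of these belonged to 128 members. The metal response core was in 19.5% of all windows and 23.0% of member windows. The amino acid response element was in 3.20% and 2.81%, and the hypoxia response core in 4.40% and 7.87%. The antioxidant response core, TGACNNNGC or TGAGNNNGC, was in 21.1% and 25.8%. In all, 18 genes were looked up for the 4 motifs, but Slc7a5, Slc15a3, Slc2a3 and Slc6a6 among them had no window to search. Beside Slc30a1, the metal response core had 1 match each in Slc46a3, Slc25a20, Slc2a1 and Slc6a12. In the metallothionein genes it had 3 matches in Mt2 and 0 in Mt1. The hypoxia response core also had 1 match in Slc2a1. Every choice of gene, and every motif but the metal response core, was made after the values were seen. These are letters in a window, not measured binding.

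The 172 members fell into 43 Slc families on 20 chromosomes and were grouped by the substrate of each carrier into 14 classes. Mitochondrial carriers (31 members) were the largest class, then metal ions and heme (23), amino acids and peptides (21) and carriers of no settled substrate (21). Of the members, 106 reached 5 TPM in all 5 groups, 42 in 2 to 4 groups and 24 in 1 group. Of those 24, 11 did so in colonic MHCII+ cells, 11 in splenic MHCII+ cells, 1 in CD11c+ cells, 1 in CD11b+CD11c+ cells and 0 in CD11b+ cells. The highest group mean lay in splenic MHCII+ cells for 54 members, in colonic MHCII+ cells for 45, in CD11b+CD11c+ cells for 42, in CD11b+ cells for 16 and in CD11c+ cells for 15.

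Just inside the threshold were Slc13a3, Slc25a15, Slc51b and Slc14a1, with highest group means of 5.36, 5.24, 5.11 and 5.02 TPM. Just outside were Slc1a4, Slc39a8, Slc25a35 and Slc25a53, at 4.85, 4.85, 4.81 and 4.77 TPM. The deposited TPM can lean on very short annotated transcripts: in 29 members more than 50% of the summed TPM came from transcripts with a coding length under 300 bases, and in 128 members under 10% did. Without those transcripts 165 members passed, and Slc26a6, Slc12a5, Slc25a14, Slc25a27, Slc16a13, Slc19a1 and Slc5a6 did not. The tests below use estimated counts, which are not divided by transcript length.

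Summed over members, the carriers took between 4603 and 5742 TPM of a library, so the whole set differed little between groups while its classes did not. The mitochondrial sum was highest in colonic MHCII+ cells (1714 and 1650.0 TPM) and lowest in CD11b+ cells (1237 and 1255 TPM). Within it, the phosphate carrier Slc25a3 and the ADP/ATP carrier Slc25a5 were the most abundant there, Slc25a3 with 596 and 575 TPM and Slc25a5 with 415 and 341 TPM. The amino acid and peptide sum ran from 763 and 666 TPM in splenic MHCII+ cells to 1349 and 1494 TPM in CD11b+CD11c+ cells. Carboxylate carriers had 38.0 and 43.5 TPM in CD11c+ cells, 76.3 and 81.3 TPM in CD11b+CD11c+ cells and 133 and 116 TPM in CD11b+ cells, and the libraries of these 3 subsets did not overlap.

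Several of the most abundant members of the other classes were present in every group. The glutamine carrier Slc38a1 had its highest mean in CD11b+CD11c+ cells (130.1 and 164 TPM) and its lowest in splenic MHCII+ cells (109 and 83.9 TPM), with its CD11c+ libraries inside the range of the CD11b+CD11c+ ones. Slc8b1, the sodium/calcium exchanger of mitochondria, had group means between 88.0 TPM in CD11b+CD11c+ and 102 TPM in CD11c+ cells, and Slc35a4, of no settled substrate, between 73.6 TPM in CD11b+ and 95.2 TPM in colonic MHCII+ cells. Others varied more: Slc35b2, which brings the sulfate donor PAPS into the Golgi, had 31.1 and 28.8 TPM in splenic MHCII+, 30.4 and 43.3 TPM in CD11c+ and 71.1 and 98.3 TPM in CD11b+CD11c+ cells. Slc35b1, the ATP/ADP carrier of the endoplasmic reticulum, had 45.7 and 44.8 TPM in splenic MHCII+ and 101 and 104 TPM in CD11c+ cells. Slc35f6, of no settled substrate, ran from 23.6 and 18.4 TPM in splenic MHCII+ to 106 and 108 TPM in CD11b+CD11c+ cells, and the vitamin C carrier Slc23a2 from 16.3 and 28.2 to 77.5 and 41.4 TPM in the same groups. The endosomal proton exchanger Slc9a9 had 10.1 and 9.06 TPM in colonic MHCII+ and 26.3 and 32.1 TPM in CD11b+CD11c+ cells, and the anion exchanger Slc4a2 had 14.5 and 18.8 TPM in CD11c+ and 29.5 and 30.6 TPM in colonic MHCII+ cells. The symbol rule also took in 4 genes that are not transporters, among them the scaffold Slc9a3r1, with 83.7 and 92.8 TPM in splenic MHCII+ and 39.7 and 31.3 TPM in CD11c+ cells, Slc7a6os, with 23.3 and 22.5 TPM in CD11b+CD11c+ and 37.9 and 34.3 TPM in splenic MHCII+ cells, and Slc4a1ap, with 10.1 and 7.97 TPM in CD11b+CD11c+ and 21.6 and 23.2 TPM in splenic MHCII+ cells.

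**Figure D1:**
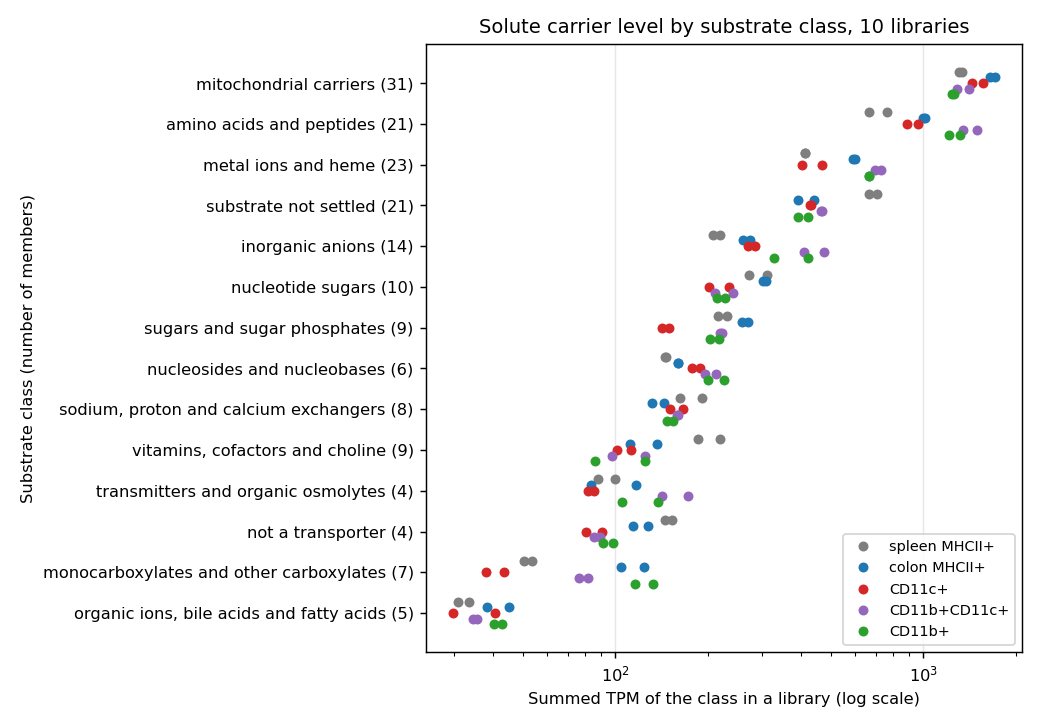
Summed TPM of each substrate class (number of members in brackets) in each of the 10 libraries, on a log axis, with 1 point per library and colors for the 5 groups. Carboxylate carriers lie lowest in CD11c+ and splenic MHCII+ libraries, and the sums of amino acid and metal carriers are highest in CD11b+CD11c+ libraries.

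Estimated counts totalled 12806139 to 41769042 per library. The sorted integrin Itgam (CD11b) measured 4.65 and 5.68 TPM in CD11c+ cells against 108 and 113 in CD11b+CD11c+ and 115 and 113 in CD11b+ cells, while Itgax (CD11c) was also present in CD11b+ cells (74.2 and 81.1 TPM). Markers of other cells moved between groups. Summed over 12 epithelial genes, colonic MHCII+ libraries had 3786 and 3634 TPM, splenic ones 16.1 and 20.6 and the 6 subset libraries 320 to 945. The 8 neutrophil genes summed to 16624 and 24389.7 TPM in the spleen and 1123 and 773 in colonic MHCII+ cells, with 2.27 and 6.89 in CD11c+, 123 and 148 in CD11b+CD11c+ and 1336 and 1184 in CD11b+ cells. The 10 macrophage genes summed to 140 to 658 TPM in CD11c+ cells against 4071 to 5426 in CD11b+CD11c+ and 3755 to 4285 in CD11b+ cells, and the 9 genes of conventional dendritic cells to 875 and 906 TPM in CD11c+, 319 and 229.8 in CD11b+CD11c+ and 117 and 116 in CD11b+ cells. The 7 plasma cell genes summed to 10489 to 10879 TPM in colonic MHCII+ cells against 169 to 178 in the spleen, and to 21527 to 27252 TPM in CD11c+ cells against 7027 to 8920 in CD11b+CD11c+ and 9493 to 12161 in CD11b+ cells. The 7 B cell genes summed to 47.4 to 61.8 TPM in colonic and 1045 to 1122 TPM in splenic MHCII+ cells, and the 8 stromal and endothelial genes to 673 to 756 TPM in CD11b+ cells against 124 to 149 in CD11b+CD11c+ and 221 to 254 in CD11c+ cells. The part of these cells in each result below was not tested, except where a value is given beside it. In such bulk samples, fewer cells of a type and less RNA per cell cannot be told apart.

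Colonic and splenic MHCII+ cells were compared first. Of the carriers of metals, amino acids and peptides, sugars and carboxylates that were called, more were higher than lower in the colon (12 and 2, 10 and 4, 5 and 1, and 4 and 0), while of the sodium, proton and calcium exchangers 0 were higher and 4 lower. By edgeR's quasi-likelihood test, adjusted by Benjamini-Hochberg over all 15076 genes tested, 75 members were higher in the colon, 38 were lower and 59 were not called at an adjusted p under 0.05. That is 65.7% called, against 60.3% of all genes tested and 64.2% of all genes that pass the same TPM rule, so the total share of calls was near its background. Higher calls took 43.6% of the members against 31.6% of all genes tested (30.7% at the TPM rule), and lower calls 22.1% against 28.7% (33.5%). The median log2 fold change was 0.29 over members and 0.02 over all genes tested. A member at 5 TPM in the colon alone had nearly to be higher there: of 27 such members 25 were higher, of 20 at 5 TPM in the spleen alone 14 were lower, and of the 121 at 5 TPM in both, 49 were higher and 24 lower. Those 25 included the metal carriers Slc39a14, Slc39a4, Slc39a5 and Slc30a1. They also included the amino acid carriers Slc6a14, Slc7a11 and Slc7a8 and the carboxylate carriers Slc5a8 and Slc16a1, so the class counts share this limit.

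**Figure D2:**
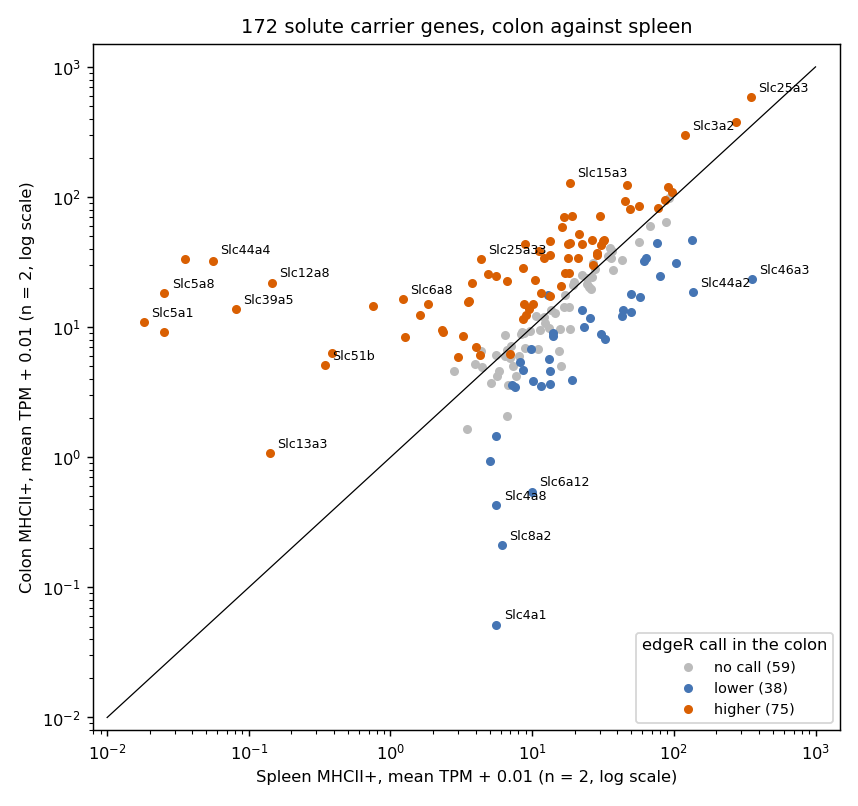
Mean TPM plus 0.01 of each member in colonic MHCII+ (vertical) against splenic MHCII+ cells (horizontal), n = 2 libraries each, on log axes, colored by the edgeR call in the colon (75 higher, 38 lower, 59 not called). The line marks equal levels. A cluster on the left, near or below 0.1 TPM in the spleen, holds Slc5a1, Slc5a8, Slc44a4, Slc12a8 and Slc39a5.

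Among the 21 amino acid and peptide carriers, 10 were higher in the colon and 4 lower. Slc15a3, a carrier of histidine and small peptides in the endolysosome (ENSMUSG00000024737.2, chr19:10839727-10859362, plus strand, GENCODE M21 on GRCm38), measured 122 and 135 TPM in the colon and 17.9 and 18.9 TPM in the spleen (log2 fold change 2.96, SE 0.10, adjusted p = 4.77e-06). Its paralog Slc15a4, of the same compartment, went the other way, with 16.1 and 17.7 TPM in the colon against 54.6 and 61.2 TPM in the spleen (log2 fold change -1.66, SE 0.09, adjusted p = 2.46e-05). The libraries of the 2 tissues did not overlap for either gene. Slc3a2, the shared heavy chain, had 298 and 301 TPM in the colon and 161 and 79.7 TPM in the spleen (log2 fold change 1.97, SE 0.21, adjusted p = 0.000328), the splenic libraries lying far apart from each other but both below the colonic ones.

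Of the light chains that pair with Slc3a2, 3 were higher in the colon too. Slc7a5, which exchanges large neutral amino acids, had 30.8 and 26.0 TPM in the colon against 8.71 and 8.47 TPM in the spleen (log2 fold change 1.88, SE 0.13, adjusted p = 4.45e-05). Slc7a11 (ENSMUSG00000027737.10, chr3:49892526-50443614, minus strand) had 18.3 and 11.9 TPM in the colon against 1.78 and 1.87 TPM in the spleen (log2 fold change 3.21, SE 0.24, adjusted p = 6.77e-05), and Slc7a8 had 10.5 and 8.37 TPM in the colon against 2.14 and 2.43 TPM in the spleen (log2 fold change 2.21, SE 0.19, adjusted p = 0.000116). Light chains of the y+L type, which exchange cationic for neutral amino acids, were not called: Slc7a7 had 31.8 and 49.8 TPM in the colon against 29.6 and 40.9 TPM in the spleen, and Slc7a6 had 11.6 and 15.5 TPM in the colon against 15.8 and 11.5 TPM in the spleen. Slc7a1, the cationic amino acid carrier that needs no heavy chain, had 43.4 and 42.9 TPM in the colon and 9.46 and 8.29 TPM in the spleen (log2 fold change 2.09, SE 0.13, adjusted p = 3.47e-05). The glutamine and neutral amino acid carrier Slc1a5 was not called, with 59.3 and 59.4 TPM in the colon against 66.8 and 68.7 TPM in the spleen (log2 fold change -0.03, SE 0.09, adjusted p = 0.76). Lower in the colon were Slc43a2, a facilitator of neutral amino acids, with 13.6 and 13.6 TPM in the colon against 46.4 and 40.8 TPM in the spleen (log2 fold change -1.14, SE 0.10, adjusted p = 0.000172), the lysosomal arginine sensor Slc38a9 at -1.06 on the log2 scale, and Slc38a6 at -0.79.

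Of the 23 carriers of metal ions and heme, 12 were higher in the colon and 2 lower. Slc11a2 (ENSMUSG00000023030.16, chr15:100387898-100425072, minus strand), which moves ferrous iron out of endosomes and, in the gut, into cells, measured 46.0 and 45.7 TPM in the colon and 14.9 and 11.9 TPM in the spleen (log2 fold change 1.77, SE 0.10, adjusted p = 2.71e-05). The copper importer Slc31a1 had 57.3 and 46.2 TPM in the colon against 21.1 and 21.9 TPM in the spleen (log2 fold change 1.45, SE 0.14, adjusted p = 0.000188). Zinc carriers split: the importers Slc39a14 (2.29), Slc39a1 (1.12) and Slc39a7 (0.76, in the endoplasmic reticulum and Golgi) and the exporter Slc30a1 (0.96) were higher on the log2 scale, while the importer Slc39a10 was lower (log2 fold change -1.20, SE 0.14, adjusted p = 0.000542). Slc30a1 itself was modest in level, at 6.46 and 7.65 TPM in the colon against 3.98 and 4.07 TPM in the spleen. The metallothioneins Mt1 and Mt2, which bind zinc and like Slc30a1 answer to Mtf1, were both called higher in the colon, at 3.55 and 5.57 on the log2 scale. Mt1 had 1208 and 1363 TPM in the colon and 143 and 76.7 TPM in the spleen, and Mt2 had 308 and 372 TPM and 5.30 and 11.7 TPM. Mtf1 itself was called lower in the colon by counts (log2 fold change -0.38, SE 0.13, adjusted p = 0.0433). Its TPM overlapped, at 29.7 and 25.4 TPM in the colon and 26.0 and 20.2 TPM in the spleen.

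Glucose carriers traded places between the tissues. Slc2a1, the common glucose carrier, had 55.5 and 62.6 TPM in the colon and 16.6 and 16.0 TPM in the spleen (log2 fold change 1.99, SE 0.10, adjusted p = 1.32e-05), and the lysosomal family member Slc2a6 had 71.9 and 71.4 TPM in the colon against 18.1 and 19.8 TPM in the spleen (log2 fold change 2.09, SE 0.09, adjusted p = 9.43e-06). The high-affinity carrier Slc2a3 was lower in the colon, with 27.6 and 21.8 TPM in the colon against 73.6 and 87.3 TPM in the spleen (log2 fold change -1.53, SE 0.10, adjusted p = 3.49e-05). Slc2a3 is known for its abundance in neutrophils, whose marker sum was also highest in the spleen, and the part of neutrophils in this difference was not tested. Of 9 sugar carriers 5 were higher and 1 lower. Of 7 carboxylate carriers 4 were higher and 0 lower: the lactate carriers Slc16a1 (22.2 and 21.7 TPM in the colon against 4.41 and 3.15 TPM in the spleen, log2 fold change 2.69, SE 0.20, adjusted p = 7.26e-05) and Slc16a3 (50.7 and 35.6 TPM in the colon against 14.2 and 21.5 TPM in the spleen, log2 fold change 1.48, SE 0.21, adjusted p = 0.00109), and Slc5a8 and Slc13a3. Basigin (Bsg), the chaperone of Slc16a1 and Slc16a3, had 192 and 216 TPM in the colon against 87.2 and 89.5 TPM in the spleen and was called higher (1.31).

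Mitochondrial carriers were mixed, with 11 higher and 8 lower of 31. The carrier of pyrimidine nucleotides Slc25a33 showed the clearest rise, from 4.16 and 4.56 TPM in the spleen to 34.4 and 32.5 TPM in the colon (log2 fold change 3.10, SE 0.13, adjusted p = 8.94e-06). Slc25a20, which brings acylcarnitines in for fatty acid oxidation, had 16.2 and 17.4 TPM in the spleen and 67.6 and 72.9 TPM in the colon (log2 fold change 2.23, SE 0.11, adjusted p = 1.21e-05). Lower in the colon were Slc25a45 (-1.79), the iron importer Slc25a37 (-1.36) and the glutamate carrier Slc25a22 (-1.33), on the log2 scale. The ADP/ATP carriers differed in direction: Slc25a5 was higher (0.62) and Slc25a4 lower (-0.60).

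The 10 nucleotide sugar carriers, which feed glycosylation in the Golgi, divided into 5 higher and 4 lower. Slc35a1, for CMP-sialic acid, had 42.6 and 35.0 TPM in the colon against 11.1 and 11.3 TPM in the spleen (log2 fold change 2.01, SE 0.13, adjusted p = 3.52e-05), with UDP-galactose carrier Slc35a2 at 1.55 and UDP-N-acetylglucosamine carrier Slc35a3 at 1.38. Slc35c2 went down, with 33.1 and 59.7 TPM in the colon against 118 and 149.9 TPM in the spleen (log2 fold change -1.37, SE 0.10, adjusted p = 7.53e-05). Of 8 exchangers of sodium, protons and calcium 0 were higher and 4 lower, among them the Golgi proton exchanger Slc9a7 (4.34 and 3.50 TPM in the colon against 19.2 and 19.2 TPM in the spleen, log2 fold change -1.87, SE 0.17, adjusted p = 0.000162), and the sodium/calcium exchangers Slc8a1 (-1.43) and Slc8a2 (-4.63). Inorganic anion carriers showed 4 higher and 4 lower of 14, led by the phosphate carrier Slc20a1 at 124 and 125 TPM in the colon against 48.5 and 45.2 TPM in the spleen (log2 fold change 1.72, SE 0.21, adjusted p = 0.000595) and the sodium bicarbonate carrier Slc4a8, lower at -3.51 on the log2 scale with 5.10 and 6.07 TPM in the spleen.

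The largest falls from spleen to colon were in genes nearly absent from the colon or abundant in the spleen. Slc46a3 (ENSMUSG00000029650.10, chr5:147878437-147894815, minus strand), a lysosomal carrier, had 27.5 and 19.05 TPM in the colon and 387 and 325 TPM in the spleen (log2 fold change -3.49, SE 0.12, adjusted p = 4.23e-06). Most of its TPM came from short transcripts, and without them it had 8.48 and 10.1 TPM in the colon and 109 and 120.2 TPM in the spleen. Slc44a2, of the choline-like family, had 20.6 and 16.6 TPM in the colon against 131 and 142 TPM in the spleen (log2 fold change -2.69, SE 0.11, adjusted p = 7.43e-06), and the betaine and GABA carrier Slc6a12 had 0.567 and 0.500 TPM in the colon against 10.7 and 9.11 TPM in the spleen (log2 fold change -3.78, SE 0.19, adjusted p = 1.58e-05). Slc4a1, the band 3 anion exchanger of red cells, had 0.0617 and 0.0218 TPM in the colon against 4.20 and 6.97 TPM in the spleen (log2 fold change -6.72, SE 0.43, adjusted p = 3.69e-05). Beside it, the erythroid list without globins summed to 7.28 and 16.3 TPM in the spleen and 5.18 and 2.66 TPM in the colon. With globins the list did not follow Slc4a1, at 1286 and 3125 TPM in the spleen and 3807 and 2237 TPM in the colon. Alas2 of that list also overlapped, at 3.86 and 6.63 TPM in the spleen and 5.07 and 2.30 TPM in the colon. The part of red cell RNA in the difference of Slc4a1 was not tested.

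The remaining classes were small. Of 4 carriers of transmitters and osmolytes 2 were higher and 2 lower, with the creatine carrier Slc6a8 at 15.6 and 17.4 TPM in the colon against 1.88 and 0.566 TPM in the spleen (log2 fold change 5.40, SE 0.28, adjusted p = 1.64e-05) and the taurine carrier Slc6a6 at 0.29 on the log2 scale. The urea carrier Slc14a1 was lower, with 1.05 and 0.812 TPM in the colon against 5.54 and 4.51 TPM in the spleen (log2 fold change -2.28, SE 0.29, adjusted p = 0.000789). Of 9 vitamin and choline carriers 4 were higher and 2 lower, the riboflavin carriers Slc52a3 (4.11) and Slc52a2 (-0.72) in opposite directions. Of 6 nucleoside carriers 2 were higher and 2 lower, including the vesicular nucleotide carrier Slc17a9 (0.96) and the nucleoside carrier Slc28a2 (-0.96).

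The largest rises were in genes listed near 0 in the spleen. Slc6a14, an amino acid carrier known from colonic epithelium (ENSMUSG00000031089.7, chrX:21714896-21742355, plus strand), had 35.3 and 31.3 TPM in the colon and 0.0213 and 0.0293 TPM in the spleen (log2 fold change 10.47, SE 0.20, adjusted p = 1.74e-06). Slc44a4, which takes up thiamine pyrophosphate in the colon, had 30.8 and 34.0 TPM in the colon against 0.0127 and 0.0784 TPM in the spleen (log2 fold change 9.69, SE 0.33, adjusted p = 4.34e-06). Slc5a8, the sodium-coupled carrier of butyrate and lactate, had 2925 estimated counts in the 2 colonic libraries and 3 in the 2 splenic ones, a ratio of 1481 after depth (95% exact binomial interval 506 to 7187, counting error only). The intestinal glucose carrier Slc5a1 had 1948 and 2 counts, a ratio of 1480 (409 to 12228).

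Those carriers were followed beside the epithelial marker sum in all colonic libraries. The 11 members taken here were the ones higher in the colon and under 1 TPM in the spleen, a choice made after their values were seen. Over the 8 colonic libraries the epithelial sum itself spanned an 11.8-fold range, while the level of Slc44a3 as a share of that sum spanned a 1.26-fold range. The span was 1.29 for Slc12a8, 1.38 for Slc44a4, 1.43 for Slc5a8, 1.69 for Slc5a1 and 1.79 for Slc6a14. The proportion of these 6 carriers to the epithelial genes varied less than the epithelial sum, but the choice of members favored this. Slc44a3, Slc12a8, Slc5a8 and Slc5a1 were under 5 TPM in every subset. They were members through colonic MHCII+ cells, where the epithelial sum was highest, so the spans are given as a description. The proportion of the other 5 varied more than that of these 6, with a span of 3.69 for the zinc importer Slc39a5, 5.02 for the bile acid carrier Slc51b, 6.74 for Slc39a4, 10.3 for the riboflavin carrier Slc52a3 and 54.8 for the dicarboxylate carrier Slc13a3. Of these 5, all but Slc13a3 also varied less than the epithelial sum. Slc39a4, a zinc importer, and Slc52a3 had more TPM in CD11c+ than in CD11b+ cells, whereas the epithelial sum was lower there. Slc39a4 had 5.62 and 3.72 TPM in CD11c+ and 3.33 and 2.99 TPM in CD11b+ cells, and Slc52a3 had 5.42 and 4.57 TPM and 1.76 and 1.42 TPM. Whether these genes were transcribed in the sorted cells or came with epithelial RNA was not tested.

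**Figure D3:**
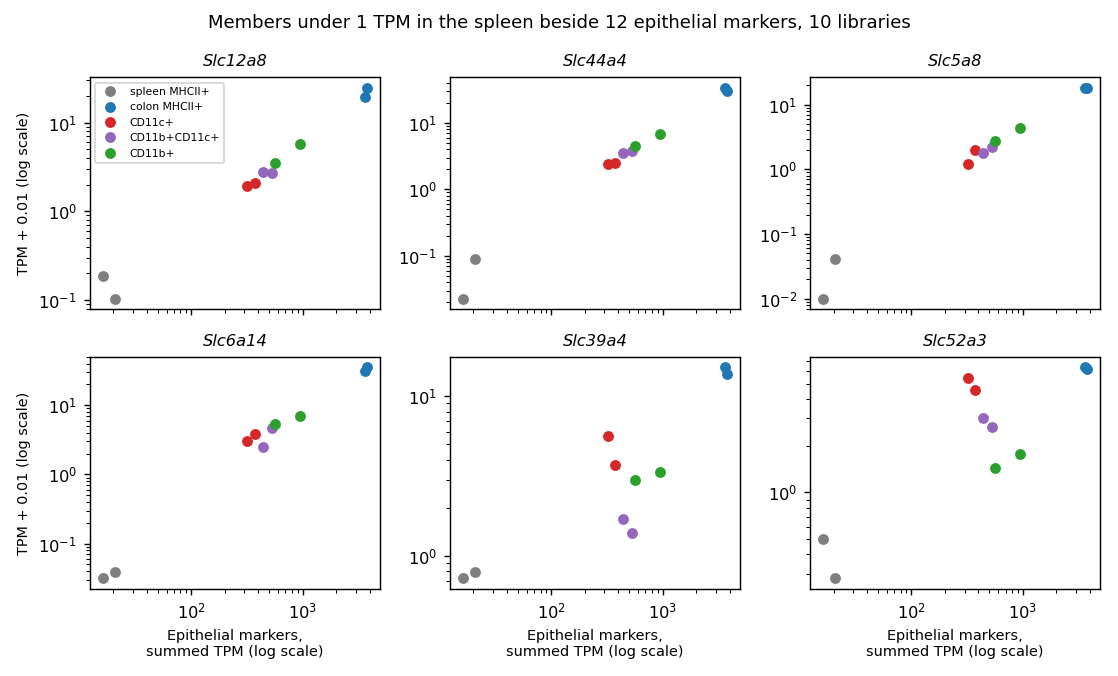
TPM plus 0.01 of 6 members (vertical) against the summed TPM of 12 epithelial marker genes (horizontal) in each of the 10 libraries, on log axes, colored by group. Slc12a8, Slc44a4, Slc5a8 and Slc6a14 rise with the marker sum, while Slc39a4 and Slc52a3 are higher in CD11c+ than in CD11b+ libraries, against the order of the marker sum.

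Of the 113 calls between colon and spleen, 85 held in every alternative run. Among the members named above, the calls of Slc38a6, Slc6a6, Slc25a5, Slc25a22, Slc39a6 and Slc5a6 were lost in at least 1 alternative. In 4 members, Slc6a8, Slc41a2, Slc20a2 and Slc45a4, the log2 ratio of mean TPM and the fitted log2 fold change lay more than 1 apart. The called fold changes of the zinc importer Slc39a6 and of the biotin and pantothenate carrier Slc5a6 have the opposite sign in TPM.

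The colonic subsets were compared next, first each CD11b-bearing subset with CD11c+ cells. These 2 comparisons share the CD11c+ libraries, so their values stand side by side and are not 2 independent results. In both, Slc7a11, Slc15a3, the iron carrier Slc11a2 and the lactate exporter Slc16a3 were higher with CD11b, and the mitochondrial carriers Slc25a20 and Slc25a38 were higher in CD11c+ cells. In CD11b+ against CD11c+ cells 58 members were higher, 31 lower and 81 not called of 170 tested, which is 52.4% against 52% of all 14225 genes tested and 55.3% of those at the same TPM rule, a share at its background. Higher calls took 34.1% of the members tested against 27% (26.7% at the TPM rule), and lower calls 18.2% against 25% (28.6%). In CD11b+CD11c+ against CD11c+ cells 64 were higher, 25 lower and 81 not called. The 52.4% called stood against 43% of all genes tested and 47.8% of those at the same TPM rule, with 37.6% higher against 20.4% (22.6%) and 14.7% lower against 22.5% (25.1%). Slc4a1 and Slc51b were not tested for low counts. The median log2 fold change of members was 0.15 and 0.20, against -0.02 and -0.09 over all genes tested.

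The threshold bears on these counts as it did above. Of 119 members at 5 TPM in both groups in CD11b+ against CD11c+ cells, 33 were higher and 22 lower, and of 118 such members in CD11b+CD11c+ against CD11c+ cells, 44 were higher and 16 lower. Of members at 5 TPM in CD11b+ cells alone 18 of 20 were higher, and in CD11b+CD11c+ cells alone 18 of 18. Those in CD11b+ cells included Slc7a11, Slc7a8, Slc38a7, Slc36a1, Slc30a1, Slc16a7, Slc27a4, Slc37a2 and Slc6a8, so the class counts below share this limit.

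**Figure D4:**
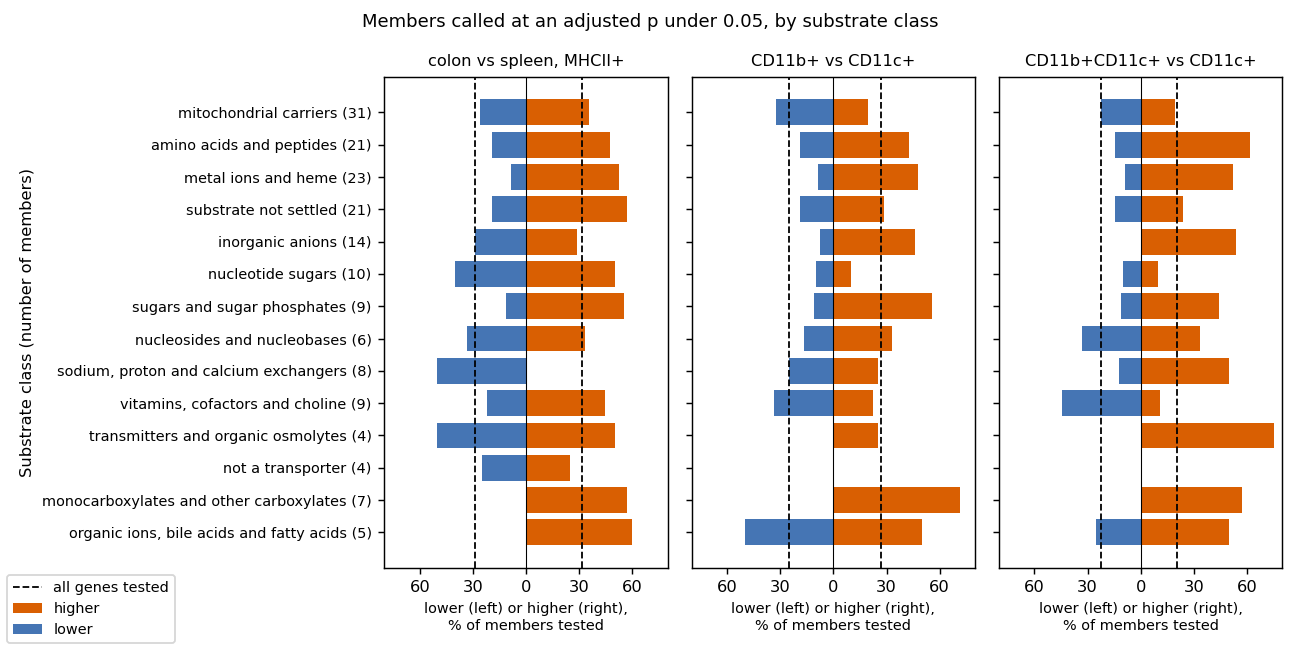
Share of the tested members of each substrate class (number of members in brackets) called higher (right) or lower (left) at an adjusted p under 0.05, by edgeR, in 3 comparisons. Dashed lines mark the share of all genes tested called in each direction. Amino acid, metal, carboxylate, sugar, nucleoside and organic ion carriers pass the dashed line on the right in all 3 panels. Carriers of no settled substrate do so too. Exchangers have 0 higher calls in the colon against the spleen.

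Amino acid and peptide carriers stood at 9 higher and 4 lower of 21 in CD11b+ cells, and 13 and 3 in CD11b+CD11c+ cells. Slc15a3 had 28.9 and 70.1 TPM in CD11c+ libraries, 235 and 298 TPM in CD11b+CD11c+ and 220.2 and 259 TPM in CD11b+ libraries. Both CD11b-bearing subsets were above both CD11c+ libraries, at 2.20 (SE 0.42, adjusted p = 0.00665) and 2.40 (SE 0.42, adjusted p = 0.00612) on the log2 scale for CD11b+ and CD11b+CD11c+ cells. The CD11c+ libraries differed from each other, and their macrophage sums were 140 and 658 TPM in the same order. Slc7a8 had 2.33 and 5.95 TPM in CD11c+ cells against 19.7 and 29.0 TPM in CD11b+CD11c+ and 22.8 and 26.5 TPM in CD11b+ cells, called in both comparisons (2.55 and 2.51).

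Slc7a11 rose most among amino acid carriers, from 1.08 and 2.24 TPM in CD11c+ cells to 13.4 and 16.2 TPM in CD11b+CD11c+ and 26.8 and 24.1 TPM in CD11b+ cells. The fitted log2 difference was 3.89 (SE 0.34, adjusted p = 0.000543) for CD11b+ and 3.16 (SE 0.33, adjusted p = 0.00126) for CD11b+CD11c+ cells, and no libraries of the 3 subsets overlapped. The difference of Slc7a11 between CD11b+CD11c+ and CD11b+ cells was not called. Between these subsets, of 172 members 50 had both CD11b+CD11c+ libraries above both CD11b+ ones, and 46 had both below. Other light chains, Slc7a5 and Slc7a6, went the other way: Slc7a5 had 32.4 and 34.8 TPM in CD11c+ cells, 22.5 and 17.3 in CD11b+CD11c+ and 15.4 and 15.2 in CD11b+ cells, called lower in both (-0.78 and -1.21). Slc7a6 was lower in CD11b+ cells by counts (-0.62), but its TPM overlapped, at 18.5 and 14.7 against 18.2 and 15.4 TPM in CD11c+ cells. The light chain Slc7a7 was called higher in CD11b+ cells (0.90), with 74.3 and 58.0 against 18.8 and 33.9 TPM in CD11c+ cells. How that call held in the alternatives is not given here. The heavy chain Slc3a2 was called higher only in CD11b+CD11c+ cells (0.51, adjusted p = 0.0191), with 0.31 and an adjusted p of 0.0751 in CD11b+ cells. The difference between these subsets was itself not called (adjusted p = 0.376). Slc1a5 was lower in both subsets, with 58.2 and 51.6 TPM in CD11c+, 39.6 and 32.7 in CD11b+CD11c+ and 34.8 and 33.8 in CD11b+ cells. Lysosomal amino acid carriers higher in both included Slc38a7 and Slc36a1: the glutamine exporter Slc38a7 had 3.04 and 3.70 TPM in CD11c+, 13.2 and 15.3 TPM in CD11b+CD11c+ and 12.7 and 14.0 TPM in CD11b+ cells, and the proton-coupled carrier Slc36a1 had 3.44 and 2.62 TPM in CD11c+, 8.41 and 9.36 TPM in CD11b+CD11c+ and 6.54 and 8.05 TPM in CD11b+ cells. Slc43a2 followed the same order, with 8.70 and 7.98 TPM in CD11c+ cells and 30.1 and 33.2 TPM in CD11b+CD11c+ and 27.5 and 30.4 TPM in CD11b+ cells.

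Among 23 metal and heme carriers 11 were higher and 2 lower in CD11b+ cells, and 12 and 2 in CD11b+CD11c+ cells. Slc11a2 had 17.0 and 24.6 TPM in CD11c+ libraries, 143 and 156 TPM in CD11b+CD11c+ and 115 and 119.9 TPM in CD11b+ libraries, at 2.79 (SE 0.28, adjusted p = 0.00116) and 2.42 (SE 0.28, adjusted p = 0.00131) for CD11b+CD11c+ and CD11b+ cells. Its level in CD11b+CD11c+ cells was the highest of these 23 members in any group, with Slc40a1 and Slc11a1 left out by rule. The zinc importers Slc39a1 and Slc39a14 were called higher in both subsets. Slc39a1 had 22.1 and 27.8 TPM in CD11c+ and 63.3 and 68.5 TPM in CD11b+CD11c+ cells, and Slc39a14 had 6.28 and 8.42 TPM and 31.5 and 35.8 TPM. The zinc exporter Slc30a1 was higher at a lower level, with 3.76 and 4.24 TPM in CD11c+, 6.61 and 8.41 TPM in CD11b+CD11c+ and 7.95 and 8.34 TPM in CD11b+ cells. Metallothionein Mt1 had 514 and 575 TPM in CD11c+, 2535 and 2807 TPM in CD11b+CD11c+ and 2026 and 2025 TPM in CD11b+ cells and was called higher in both. The copper carriers Slc31a1 and Slc31a2 were called higher in both subsets, Slc31a1 at 0.69 in CD11b+ and Slc31a2 at 1.03 in CD11b+CD11c+ cells on the log2 scale. The metal carriers lower in both were Slc39a4, at -1.63 in CD11b+CD11c+ and -0.64 in CD11b+ cells, and Slc30a5, at -0.30 and -0.27.

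The lactate exporter Slc16a3 and the fatty acid carrier Slc27a4 separated all 3 subsets. Slc16a3 (ENSMUSG00000025161.16, chr11:120948480-120960868, plus strand) had 6.11 and 6.14 TPM in CD11c+ libraries, 26.8 and 24.5 TPM in CD11b+CD11c+ and 68.1 and 56.6 TPM in CD11b+ libraries, the groups lying in that order without overlap. The fitted log2 difference from CD11c+ cells was 2.19 (SE 0.12, adjusted p = 0.000242) and 3.47 (SE 0.12, adjusted p = 0.00011). Hif1a, the oxygen-responsive factor that is known to drive Slc16a3, had 34.0 and 33.0 TPM in CD11c+, 63.2 and 61.9 TPM in CD11b+CD11c+ and 97.1 and 95.1 TPM in CD11b+ cells. The neutrophil sum rose in the same order too (2.27 to 6.89, 123 to 148 and 1184 to 1336 TPM), and its part in these levels was not tested. Slc27a4, a fatty acid carrier with acyl-CoA synthetase activity, had 3.19 and 4.15 TPM in CD11c+, 6.98 and 7.12 TPM in CD11b+CD11c+ and 24.7 and 20.2 TPM in CD11b+ cells, at 0.92 (SE 0.16, adjusted p = 0.00644) and 2.54 (SE 0.17, adjusted p = 0.000278) from CD11c+ cells. The pyruvate and lactate carrier Slc16a7 had 1.15 and 6.89 TPM in CD11c+ cells, where library 2 was also the one with the higher macrophage sum, against 14.1 and 21.0 TPM in CD11b+CD11c+ and 25.5 and 23.6 TPM in CD11b+ cells. Slc16a1 was not called in either comparison, with 11.2 and 9.42 TPM in CD11c+, 8.19 and 9.49 TPM in CD11b+CD11c+ and 9.44 and 10.2 TPM in CD11b+ cells.

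Of 9 sugar carriers 5 were higher and 1 lower in CD11b+ cells, and 4 and 1 in CD11b+CD11c+ cells. Slc2a1 had 22.3 and 26.9 TPM in CD11c+, 43.1 and 48.5 TPM in CD11b+CD11c+ and 47.0 and 48.7 TPM in CD11b+ cells, and Slc37a2, a sugar phosphate exchanger of the endoplasmic reticulum, had 2.53 and 4.09 TPM in CD11c+, 17.5 and 23.7 TPM in CD11b+CD11c+ and 15.5 and 15.8 TPM in CD11b+ cells. Both were called in both comparisons, Slc37a2 at 2.63 and 2.17 and Slc2a1 at 0.85 and 0.87 for CD11b+CD11c+ and CD11b+ cells. The phosphate carrier Slc20a1 reached 285 and 346 TPM in CD11b+CD11c+ cells against 201 and 177 TPM in CD11c+ cells (log2 fold change 0.60, SE 0.10, adjusted p = 0.00449). The nucleoside carriers Slc29a1 of the plasma membrane and Slc29a3 of the lysosome were both called higher in both subsets, Slc29a1 with 92.6 and 78.5 TPM in CD11b+CD11c+ against 37.5 and 31.4 TPM in CD11c+ cells, and Slc29a3 with 12.9 and 12.4 against 3.84 and 6.33 TPM. The creatine carrier Slc6a8 had 1.83 and 1.71 TPM in CD11c+, 8.62 and 8.64 TPM in CD11b+CD11c+ and 7.69 and 7.25 TPM in CD11b+ cells, with groups far apart and log2 differences of 2.31 (SE 0.10, adjusted p = 0.000232) and 2.05 (SE 0.10, adjusted p = 0.000167).

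The clearest falls were in mitochondrial carriers, of which 6 were higher and 10 lower of 31 in CD11b+ cells, and 6 and 7 in CD11b+CD11c+ cells. Slc25a20 (ENSMUSG00000032602.6, chr9:108662088-108684641, plus strand) had 158 and 165 TPM in CD11c+ libraries, 54.5 and 36.2 TPM in CD11b+CD11c+ and 25.2 and 24.3 TPM in CD11b+ libraries, with log2 differences of -1.86 (SE 0.19, adjusted p = 0.00117) and -2.78 (SE 0.20, adjusted p = 0.000344). Slc25a38, the glycine carrier of heme synthesis, fell likewise from 80.2 and 69.7 TPM to 32.2 and 20.5 TPM in CD11b+CD11c+ and 18.3 and 19.4 TPM in CD11b+ cells (-1.70 and -2.10). Also lower in both subsets were the proton exchanger Slc9a7, with 11.4 and 11.5 TPM in CD11c+, 5.54 and 4.10 TPM in CD11b+CD11c+ and 2.03 and 2.49 TPM in CD11b+ cells, and Slc46a3, with 86.7 and 80.2 TPM in CD11c+, 35.0 and 44.9 TPM in CD11b+CD11c+ and 5.09 and 11.2 TPM in CD11b+ cells. Without short transcripts Slc46a3 had 21.2 and 22.0 TPM in CD11c+, 10.2 and 7.06 TPM in CD11b+CD11c+ and 3.41 and 4.20 TPM in CD11b+ cells. Slc22a21, an organic cation and carnitine family member next to close paralogs whose reads may be shared, had 9.89 and 7.58 TPM in CD11c+, 2.89 and 3.45 TPM in CD11b+CD11c+ and 1.54 and 1.77 TPM in CD11b+ cells. Slc35e2, of no settled substrate, was lower at -1.11 in CD11b+CD11c+ and -1.44 in CD11b+ cells. Riboflavin carriers Slc52a2 and Slc52a3 were lower in both subsets as well.

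**Figure D5:**
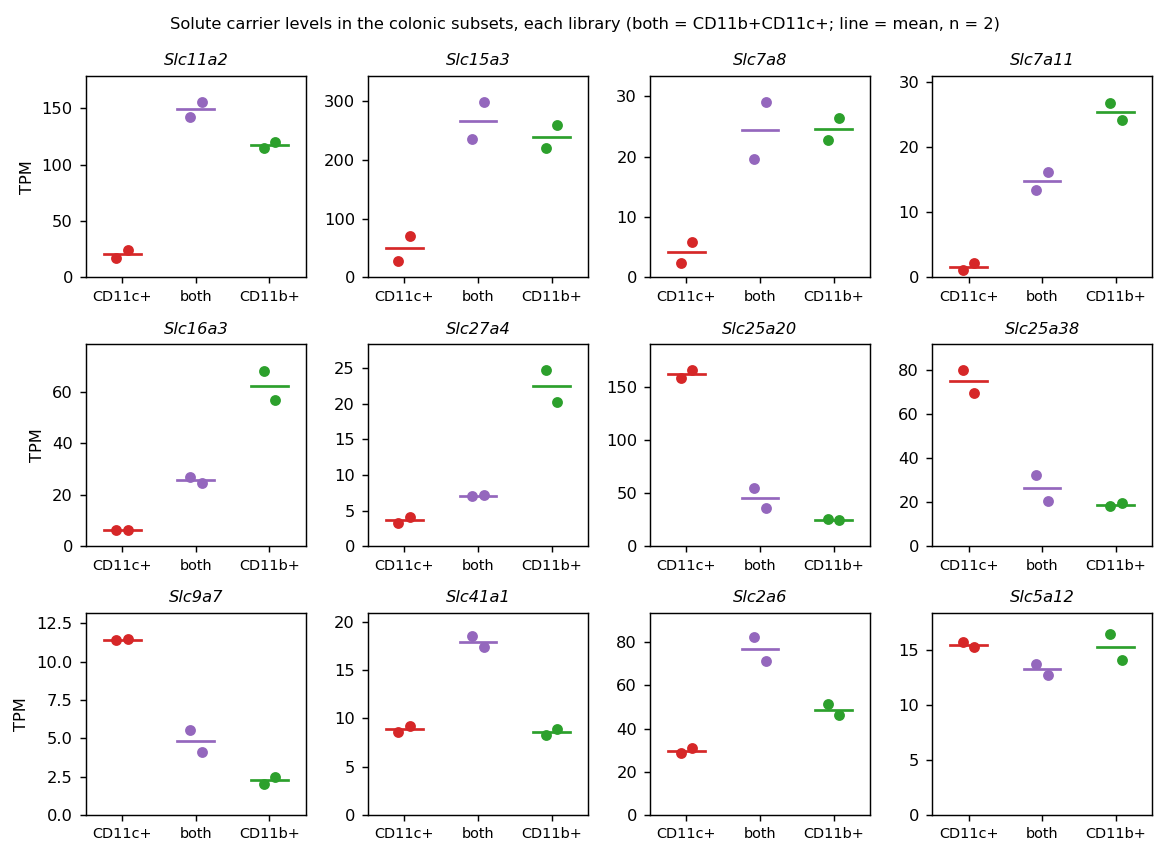
TPM of 12 members in each library of the 3 colonic subsets (2 points per subset, line at the mean), with every vertical axis starting at 0. The first 6 panels are lowest in CD11c+ cells, Slc25a20, Slc25a38 and Slc9a7 are highest there, Slc41a1 and Slc2a6 peak in CD11b+CD11c+ cells, and Slc5a12 lies between 12.7 and 16.5 TPM in all 6 libraries.

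Some counts of calls fell when 1 library was left out, which leaves 1 library in that group. The count of members lower in CD11b+ than in CD11c+ cells fell from 31 to 16 without CD11b+ library 1 and to 17 without CD11b+ library 2, and the 25 lower in CD11b+CD11c+ than in CD11c+ cells fell to 9 without CD11b+CD11c+ library 2. Of the 89 calls in each comparison, 52 (CD11b+) and 48 (CD11b+CD11c+) held in every alternative run, and among the genes named above calls of Slc3a2, Slc1a5, Slc16a7, Slc20a1, Slc29a3, Slc30a5, Slc39a4, Slc46a3, Slc7a6, Slc52a2 and Slc52a3 did not.

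CD11b+CD11c+ and CD11b+ cells differed in few carriers. Of 170 members tested 10 were higher in CD11b+CD11c+ cells, 7 were lower and 153 were not called, a share of 10% against 9.63% of all genes tested and 9.52% of those at the same TPM rule. By direction, all genes tested gave 3.79% higher and 5.84% lower, and those at the TPM rule 4.51% and 5.01%. Among those higher were Slc46a3, Slc41a1, Slc9a7, Slc25a20, Slc22a21, Slc41a2, Slc2a6, Slc27a1 and Slc20a1, and those lower were Slc27a4, Slc16a3, Slc39a4, Slc43a3, Slc2a3, Slc30a6 and Slc12a2. The magnesium carrier Slc41a1 had 18.5 and 17.4 TPM in CD11b+CD11c+ cells and 8.32 and 8.93 TPM in CD11b+ cells (log2 fold change 1.11, SE 0.11, adjusted p = 0.00337), and CD11c+ cells had 8.55 and 9.24 TPM. It was thus high in CD11b+CD11c+ libraries alone among the subsets. Slc16a3 and Slc27a4 were lower in CD11b+CD11c+ than in CD11b+ cells, at -1.28 (SE 0.11, adjusted p = 0.00254) and -1.62 (SE 0.16, adjusted p = 0.00355), with no overlap of libraries. The other fatty acid carrier called, Slc27a1, went the other way, with 11.7 and 12.6 TPM in CD11b+CD11c+ against 9.18 and 10.8 TPM in CD11b+ cells (log2 fold change 0.61, SE 0.13, adjusted p = 0.0385). The glucose carriers Slc2a6 and Slc2a3 also moved apart, Slc2a6 at 82.3 and 71.2 TPM in CD11b+CD11c+ against 51.2 and 46.2 TPM in CD11b+ cells (log2 fold change 0.70, SE 0.12, adjusted p = 0.0167) and Slc2a3 at 19.9 and 28.5 TPM in CD11b+CD11c+ against 31.4 and 30.7 TPM in CD11b+ cells (log2 fold change -0.56, SE 0.11, adjusted p = 0.0285).

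Of these 17 calls, 3 (Slc41a1, Slc16a3 and Slc27a4) held in every alternative run, the counts with 1 library left out ranged from 1 to 8 higher and were 2 lower each time, and DESeq2 called 20 higher and 7 lower. For Slc46a3 the log2 ratio of mean TPM lay more than 1 from the fitted 1.29. In this comparison, the neutrophil and eosinophil sums were 1184 to 1336 and 160 to 179 TPM in CD11b+ cells against 123 to 148 and 19.1 to 24.1 TPM in CD11b+CD11c+ cells.

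A last group of genes was read from a list of carriers of the same superfamily under other symbols, which holds 32 genes, 31 of them in the tables. Of 28 tested in colonic against splenic MHCII+ cells, 11 were higher and 5 lower, beside 31.6% and 28.7% of all genes tested. Of 27 tested in the subsets, 7 were higher and 8 lower in CD11b+ against CD11c+ cells, 8 and 5 in CD11b+CD11c+ against CD11c+ cells, and 1 and 0 in CD11b+CD11c+ against CD11b+ cells. Of all genes tested, 27% and 25%, 20.4% and 22.5%, and 3.79% and 5.84% were higher and lower in these 3 comparisons, so the list's counts in CD11b+ against CD11c+ cells were near the background. The organic anion carriers Slco2b1 and Slco3a1 moved in opposite directions, Slco2b1 at 2.23 and 6.67 TPM in CD11c+, 38.4 and 51.8 TPM in CD11b+CD11c+ and 39.5 and 46.9 TPM in CD11b+ cells and Slco3a1 at 27.7 and 31.3 TPM in CD11c+, 10.1 and 7.93 TPM in CD11b+CD11c+ and 6.35 and 8.09 TPM in CD11b+ cells. The lysosomal cystine exporter Ctns was higher in both CD11b-bearing subsets, as Slc38a7 and Slc36a1 were. It had 4.67 and 8.17 TPM in CD11c+, 28.5 and 29.7 TPM in CD11b+CD11c+ and 23.3 and 24.9 TPM in CD11b+ cells. Lysosomal Slc38a9 and endolysosomal Slc15a4 were not called in CD11b+ against CD11c+ cells (0.25 and 0.39, adjusted p = 0.0604 and 0.0792 by edgeR). Among 13 partners and regulators of carriers, 7 were higher and 4 lower in the colon against the spleen, and 6 and 2 in each CD11b-bearing subset against CD11c+ cells. Nfe2l2, the factor of the antioxidant response that is known to drive Slc7a11, had 45.6 and 70.4 TPM in CD11c+, 171 and 205 TPM in CD11b+CD11c+ and 167 and 179 TPM in CD11b+ cells. Atf4, on the same list, was called higher in the colon (1.27). Against CD11c+ cells it was called in CD11b+CD11c+ cells (0.27, adjusted p = 0.0458) but not in CD11b+ cells (0.17, adjusted p = 0.146). Mtf1 was called in neither, at -0.18 and -0.06 (adjusted p = 0.27 and 0.67).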

How the data were processed

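Estimated counts and TPM per transcript were deposited by the authors as kallisto tables, in which the count is the expected number of reads and TPM is relative to effective length, per the file headers. Per the submitters' processing notes the tools were kallisto 0.44.0 and sleuth and the build mm10; the transcript index and strand setting are not stated there. Of 66760 transcripts 65747 (98.48%) matched GENCODE M21 by identifier, and 88.9% of lengths were multiples of 3, so they are coding lengths and untranslated regions were not counted. Transcripts without a gene held 0.532 to 0.912% of the estimated counts and were left out. The titles abbreviate the populations and were read through the series' design text.

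TPM and estimated counts were summed per gene, and counts were rounded. The 4 MHCII+ and the 6 subset libraries were fitted separately in edgeR 4.0.16 (R 4.3.3) by quasi-likelihood, with filterByExpr, TMM and group as the only term. Adjusted p-values are Benjamini-Hochberg over the 15076 and 14225 genes tested, called under 0.05, and printed adjusted p-values are edgeR's. No permutation test was run, since with 2 libraries a group it cannot reach the threshold. Alternatives were DESeq2 1.42.0, limma 3.58.1 on log2(TPM + 1) and log2(TPM + 0.1), upper quartile scaling, no count filter, a fit over all 10 libraries, an effective length offset, a replicate block and leaving out each library. A fit with 1 library in an arm assumes that it varies like the others. Replicates correlated at 0.968 to 0.986 over genes and differed beyond sampling noise (chi-square 11.4 to 41.0 per gene).

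Members and gene lists were chosen with earlier results of these data known. The rule for named genes took the 3 most abundant members of each class, the 6 largest rises and falls called in each comparison among those at 5 TPM with separate libraries, the 3 most distinct for each group, the 4 on each side of the threshold, and pairs of 1 family with opposite directions. Other members named, and the selection of genes for the sequences, were chosen after their values were seen. Reads of near-identical paralogs can be split by kallisto. Some members are counted but not reported by name here.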

Additional observations from a re-analysis of the deposited data

How the results depend on the processing

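Each comparison was refitted with 1 choice changed at a time, except that the limma fits change the test, the unit and scaling (TPM in place of counts) and the gene filter together. Members higher or lower in colonic against splenic MHCII+ cells (75 and 38), higher in CD11b+ against CD11c+ cells (58) and higher in CD11b+CD11c+ against CD11c+ cells (64) stayed within 1.5 times these counts in every alternative. The 31 lower in CD11b+ against CD11c+ cells became 17 with limma on log2(TPM + 1), 17 on log2(TPM + 0.1), and 16 to 27 with 1 library left out, so that the split of higher to lower calls went from 58:31 to 52:17 with limma. The 25 lower in CD11b+CD11c+ against CD11c+ cells ranged from 9 to 27 with 1 library left out. The 10 higher in CD11b+CD11c+ against CD11b+ cells became 20 with DESeq2, 24 with no count filter, 22 in a fit over all 10 libraries, 4 with an effective length offset, 3 and 2 with limma at the larger and smaller pseudocount, and 1 to 8 with 1 library left out. The 7 lower became 3 and 3 with limma, 4 in the fit over all 10 libraries, 3 with the offset and 2 to 2 with 1 library left out. The splits in that comparison were 20:7 with DESeq2, 24:5 with no filter and 22:4 over all libraries.

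Of 8423 refits of single genes, 7722 kept the side of the threshold, 518 lost a call and 173 gained one. Any change of sign between fits that were both uncalled is inside the 7722. A change of sign was counted apart only where the main fit or the refit was called, and there were 10. Changes of sign were for Slc39a6 in colonic against splenic MHCII+ cells, called at -0.35 but 0.45 and 0.48 with limma and 0.60 with the offset, for Slc5a6 there, called at 0.75 but -0.15, -0.17 and -0.0112, for Slc30a9 in CD11b+ against CD11c+ cells, called at 0.36 but -0.0402, -0.0403 and -0.14, and for Slc28a2 there, 0.18 with all libraries and between -0.36 and 1.02 with 1 library left out, the lowest without CD11c+ library 2 and the highest without CD11c+ library 1. The cause was not tested. With limma the median log2 difference of all genes between colon and spleen shifted by -0.17. By replicate number, deviations from the group mean correlated at 0.26 between CD11c+ and CD11b+CD11c+ libraries. The values were -0.06 between CD11c+ and CD11b+ and -0.01 between CD11b+CD11c+ and CD11b+ libraries. With 2 libraries a group this cannot decide whether replicate numbers mark a shared mouse or day. With the replicate block the counts were 64 higher and 30 lower, 65 and 26, and 12 and 5, in the order CD11b+ against CD11c+, CD11b+CD11c+ against CD11c+, and CD11b+CD11c+ against CD11b+. No paired analysis was possible for the MHCII+ set because both splenic titles carry the same number. A threshold of 2 or 10 TPM would give 212 or 137 members, and leaving out short transcripts, added after seeing the data, 165. With 2 libraries a group, low levels limit precision. On simulated counts a 2-fold change was recovered in 52.5% of the changed genes between colon and spleen and 48.5% between CD11b+ and CD11c+ cells. That simulation changed only a small share of genes and gave all genes the same spread. In the data 60.3% and 52% of genes were called, and the Benjamini-Hochberg cutoff depends on this share. These recoveries therefore do not carry over to the data, and they were not split by level.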

Other observations

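The intestinal carrier of lactate and other monocarboxylates Slc5a12 was similar in every group, with 16.7 and 18.6 TPM in colonic and 17.5 and 16.7 TPM in splenic MHCII+ cells and 15.8 and 15.3 TPM in CD11c+, 13.8 and 12.7 TPM in CD11b+CD11c+ and 16.5 and 14.1 TPM in CD11b+ cells. Its paralog Slc5a8 was listed at 0 and 0.0308 TPM in the splenic libraries. In edgeR's test Slc5a12 passed the threshold in none of the 4 comparisons (adjusted p = 0.167, 0.435, 0.0846 and 0.388).

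The transcript shares of Slc16a10 and Slc25a25 are given as values only. Slc16a10, a carrier of aromatic amino acids, was not called in any comparison. Its 1539-base coding transcript took 21.0 and 25.5% of its TPM in CD11c+ libraries, 70.2 and 49.8% in CD11b+CD11c+ and 57.1 and 51.5% in CD11b+ libraries, the rest falling mostly to a 963-base one. In Slc25a25, a calcium-dependent ATP carrier of mitochondria, which was called higher in the colon (1.65 on the log2 scale), a 1509-base transcript took 24.5 and 17.6% in colonic against 73.6 and 74.2% in splenic MHCII+ cells. With 2 libraries a group these shares carry no test.

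Within CD11c+ cells, library 1 had more TPM than library 2 for Slc28a2 (16.3 and 6.15), Slc22a5 (19.3 and 9.18) and Slc16a10 (14.6 and 6.67), and its 7 T cell genes summed to 515 against 147 TPM. The link was not tested.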
